A study of Mus musculus with 12 samples.

Results

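The B cell identity genes described here are Ms4a1, Cd79a, Cd79b, Pax5, Ebf1, Cd22, Fcer2a, Cr2 and Bank1, chosen by their symbols in the deposited comparison table. All 9 were found, of 55401 genes in the files, and each is 1 row with enough counts to be tested. They were measured by sequencing polyadenylated RNA of CD4 T cells from the spleens of C57BL/6 mice harvested 21 days after infection with Leishmania donovani, a parasite of macrophages. Cells with LAG-3, CXCR5 and low to intermediate PD-1 (LAG-3+ CXCR5+ PD-1lo/int), called TLCP here, gave 6 libraries, and the CXCR5+ PD-1hi Tfh cells, which the series description calls mostly germinal center Tfh cells, gave the other 6. CD4 T cells were isolated magnetically before the sort, and every mouse was infected, so there is no uninfected group. The series description gives 6 mice, and the libraries of each population are numbered 1 to 6. The labels name no B cell marker among those of the sort, and the mice's age and sex are not given.

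The genes encode parts of the machinery by which B cells are specified and sense antigen. Ebf1 and Pax5 are transcription factors that set up and maintain B cell commitment. Cd79a and Cd79b encode the signalling chains of the B cell receptor. Ms4a1 encodes CD20, Cr2 the complement receptor CD21, Fcer2a the low-affinity IgE receptor CD23, Cd22 an inhibitory lectin that binds sialic acid and dampens receptor signalling, and Bank1 a scaffold protein of the same pathway. In the spleen these transcripts are known above all from follicular and marginal zone B cells, among which CXCR5+ T cells lie.

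Genes were assigned 6939770 to 12688306 reads in each library. Levels are given as CPM, counts per 1e6 assigned reads after TMM scaling, and, where genes are compared with each other, as the deposited TPM values, which also account for transcript length. The T cell transcripts Cd3e, Cd4 and Trac were abundant in all 12 libraries. Cd3e averaged 503 ± 29.4 CPM in TLCP, against 520 ± 19.2 CPM in Tfh (SD, n = 6 each), and did not pass the test (log2 fold change -0.05, SE 0.06, adjusted p = 0.54). Each log2 fold change is TLCP minus Tfh. Adjusted p-values are from edgeR's quasi-likelihood test with Benjamini-Hochberg adjustment over the 12015 genes tested, with a threshold of 0.05. TLCP library 6 stood apart with the highest CPM of all 9 genes, and Tfh library 6 had the highest of its population, so results are also given without both.

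The B cell identity genes were higher in TLCP in 7 of 9 cases, by 3.66-fold to 4.92-fold, and lower in 0 of 9. At an unadjusted p under 0.05 edgeR gave 8 higher and 0 lower, a threshold at which the share of all genes was not computed. DESeq2 after adjustment gave 7 higher and 0 lower, where it called 2418 of 17139 genes higher and 1993 lower. The genes that did not pass were Pax5, at 1.62-fold, and Cd22, at 1.18-fold. Of all genes tested by edgeR, 16.8% were called higher and 16.4% lower after adjustment. The median log2 fold change of the 9 was 1.90, against -0.004 over all genes tested. Without both libraries numbered 6, 7 genes were higher and 0 lower and the median was 1.88. In bulk RNA, fewer cells of a type and less RNA per cell cannot be told apart.

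**Figure D1:**
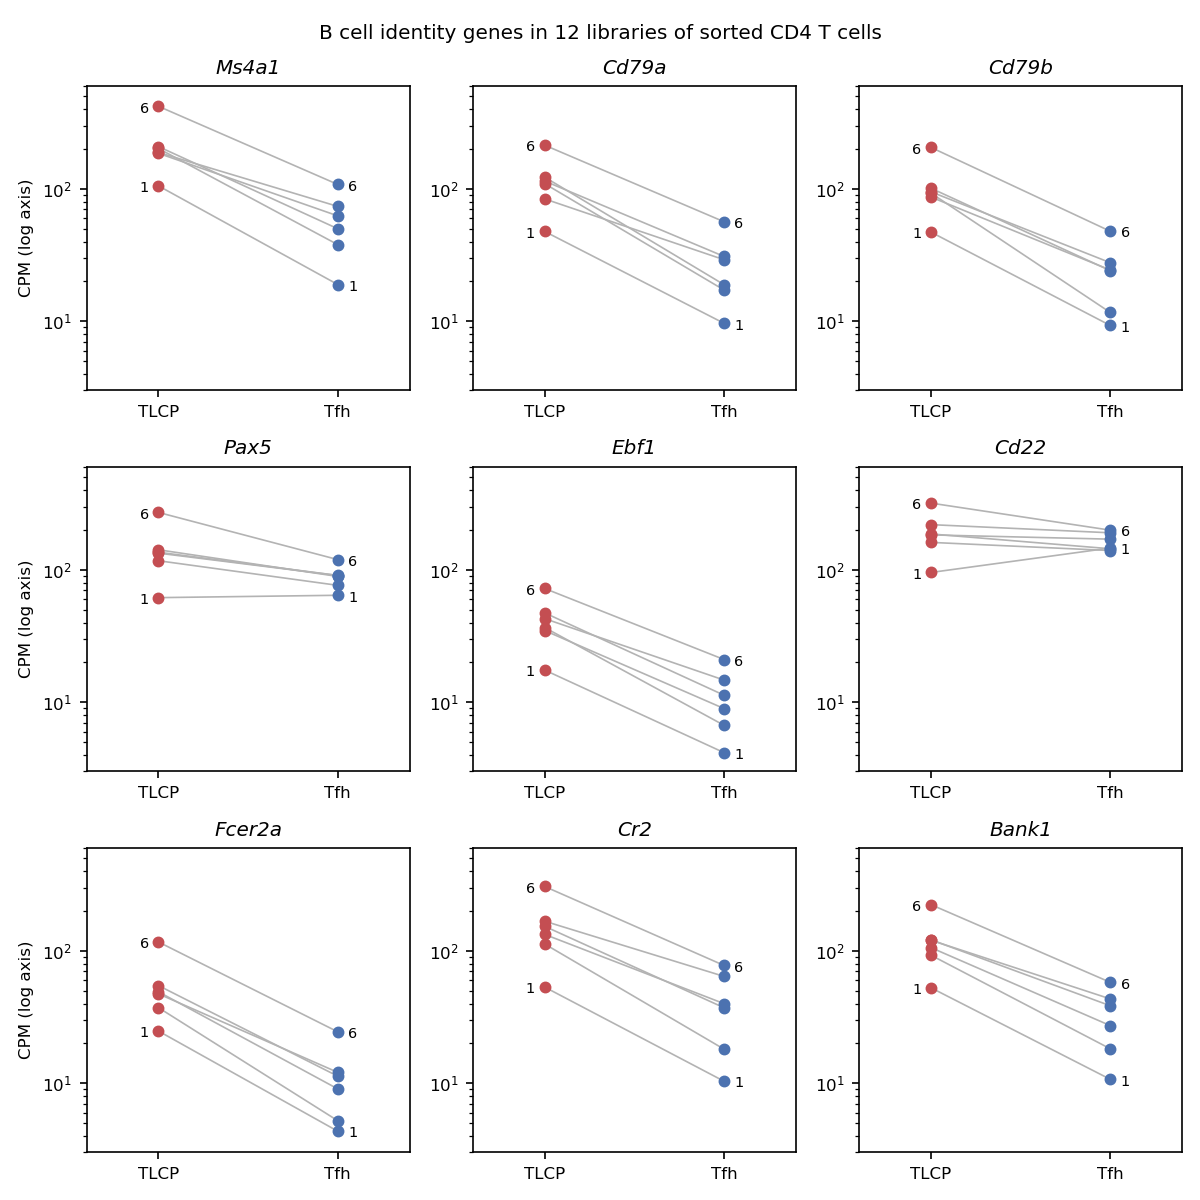
CPM (log axis) of the 9 genes in every library, TLCP left and Tfh right in each panel. Points are libraries, lines join libraries of the same number, and libraries 1 and 6 are labelled. On the CPM scale Fcer2a is the gene whose populations do not overlap, and Cd22 and Pax5 have the narrowest spread in Tfh.

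The signalling chains of the B cell receptor were both present in every library. Cd79a (ENSMUSG00000003379.7, chr7:24897381-24902197, plus strand, GRCm38 as in the files) had 47.7, 84.1, 123, 115, 110 and 214 CPM in TLCP libraries 1 to 6, against 9.65, 29.2, 18.9, 30.9, 17.2 and 56.5 CPM in Tfh libraries 1 to 6. The populations overlapped only where TLCP library 1 lay below Tfh library 6. Cd79a was 2.09 higher on the log2 scale in TLCP (SE 0.46, adjusted p = 0.0054), with all 6 numbered pairs in that direction. Cd79b (ENSMUSG00000040592.11, chr11:106311341-106314762, minus strand) ran from 47.2 to 206 CPM in TLCP with a median of 94.2 CPM, and from 9.29 to 47.9 CPM in Tfh with a median of 24.3 CPM. Its lowest TLCP value was thus just under its highest Tfh value. The log2 fold change of Cd79b was 2.11 (SE 0.45, adjusted p = 0.0045).

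Ms4a1, which encodes CD20 (ENSMUSG00000024673.9, chr19:11249675-11266241, minus strand), had 106, 189, 209, 186, 202 and 422 CPM in the TLCP libraries, against 18.9, 73.8, 50.02, 62.6, 37.9 and 108 CPM in the Tfh libraries. As with Cd79a, the overlap came from TLCP library 1 and Tfh library 6 alone. The log2 fold change was 1.90 (SE 0.43, adjusted p = 0.0066).

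Fcer2a and Cr2 encode surface receptors of mature B cells. Fcer2a (ENSMUSG00000005540.10, chr8:3681737-3694175, minus strand) had 24.8, 47.4, 49.1, 54.8, 37.3 and 117 CPM in TLCP and 4.34, 12.1, 9.06, 11.3, 5.21 and 24.5 CPM in Tfh. On the CPM scale it was the gene of the 9 in which every TLCP library was above every Tfh library. That pattern was found in 8.3% of all genes tested, and the margin was 24.8 CPM in TLCP library 1 against 24.5 CPM in Tfh library 6. On the TPM scale Ms4a1, Cd79a, Cd79b, Ebf1 and Bank1 did not overlap either, whereas Cr2, Pax5 and Cd22 did. The lowest TLCP and highest Tfh values of Cd79a, for example, were 90.9 and 88.2 TPM. The share of all genes was not computed on that scale. The log2 fold change of Fcer2a, 2.30 (SE 0.49, adjusted p = 0.0046), was the highest of the 9. Cr2 (ENSMUSG00000026616.16, chr1:195136811-195176716, minus strand) had 53.3 to 307 CPM in TLCP with a median of 144 CPM, against 10.4 to 77.7 CPM in Tfh with a median of 38.6 CPM. The lowest TLCP library, number 1, lay under Tfh libraries 2 and 6. Cr2 varied most between libraries, with a ratio of highest to lowest of 5.76 in TLCP and 7.50 in Tfh. The log2 fold change of Cr2 was 1.90 (SE 0.53, adjusted p = 0.019).

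Bank1, the scaffold of receptor signalling (ENSMUSG00000037922.13, chr3:136053363-136326066, minus strand), had 52.7, 121, 106, 122, 93.0 and 224 CPM in TLCP, against 10.7, 43.4, 27.3, 38.5, 18.2 and 57.9 CPM in Tfh. TLCP library 1 again lay under Tfh library 6. The log2 fold change of Bank1 was 1.87 (SE 0.44, adjusted p = 0.0081).

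The transcription factors of the B cell lineage did not move alike. Ebf1 (ENSMUSG00000057098.14, chr11:44617317-45008091, plus strand) had 17.5, 42.9, 34.8, 47.4, 36.7 and 72.4 CPM in TLCP and 4.16, 14.7, 8.96, 11.3, 6.69 and 21.0 CPM in Tfh. It was 1.91 higher on the log2 scale (SE 0.42, adjusted p = 0.0054), and TLCP library 1 was the single TLCP library within the Tfh range. Pax5 (ENSMUSG00000014030.15, chr4:44524757-44710487, minus strand) had 61.8, 142, 136, 134, 117 and 272 CPM in TLCP, against 64.4, 89.3, 90.9, 90.8, 76.5 and 119.7 CPM in Tfh. Here TLCP library 1 lay under every Tfh library, and TLCP library 5 lay within the Tfh range. The log2 fold change of 0.70 (SE 0.30, adjusted p = 0.10) did not pass. In the fit with a replicate block, which compares libraries of the same number, Pax5 was 0.60 higher and passed (adjusted p = 0.0062), and 8 of the 9 genes were higher and 0 lower, where 19.1% of all genes were higher and 18.0% lower. Without TLCP replicate 1 Pax5 also passed (log2 fold change 0.86, adjusted p = 0.022), and without TLCP replicate 6 its log2 fold change was 0.41 (adjusted p = 0.20).

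Cd22, the inhibitory lectin (ENSMUSG00000030577.14, chr7:30865402-30880342, minus strand), had 95.7, 184, 220, 187, 162 and 320 CPM in TLCP, against 146, 171, 191, 145, 140.2 and 199.9 CPM in Tfh. TLCP library 1 had the lowest value of all 12 libraries, and TLCP libraries 2, 4 and 5 lay within the Tfh range. The log2 fold change was 0.23 (SE 0.24, adjusted p = 0.51) with a 95% interval of -0.30 to 0.77, which lies under the fold changes of the 7 genes that passed but leaves room for a difference in either direction. Without TLCP replicate 1 the log2 fold change of Cd22 was 0.37 (adjusted p = 0.14), and without TLCP replicate 6 it was 0.03 (adjusted p = 0.93). Reads on the strand of Cd22 came to 21073 over the 12 libraries, and those of Gm29439, an antisense gene overlapping it, to 134.

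**Figure D2:**
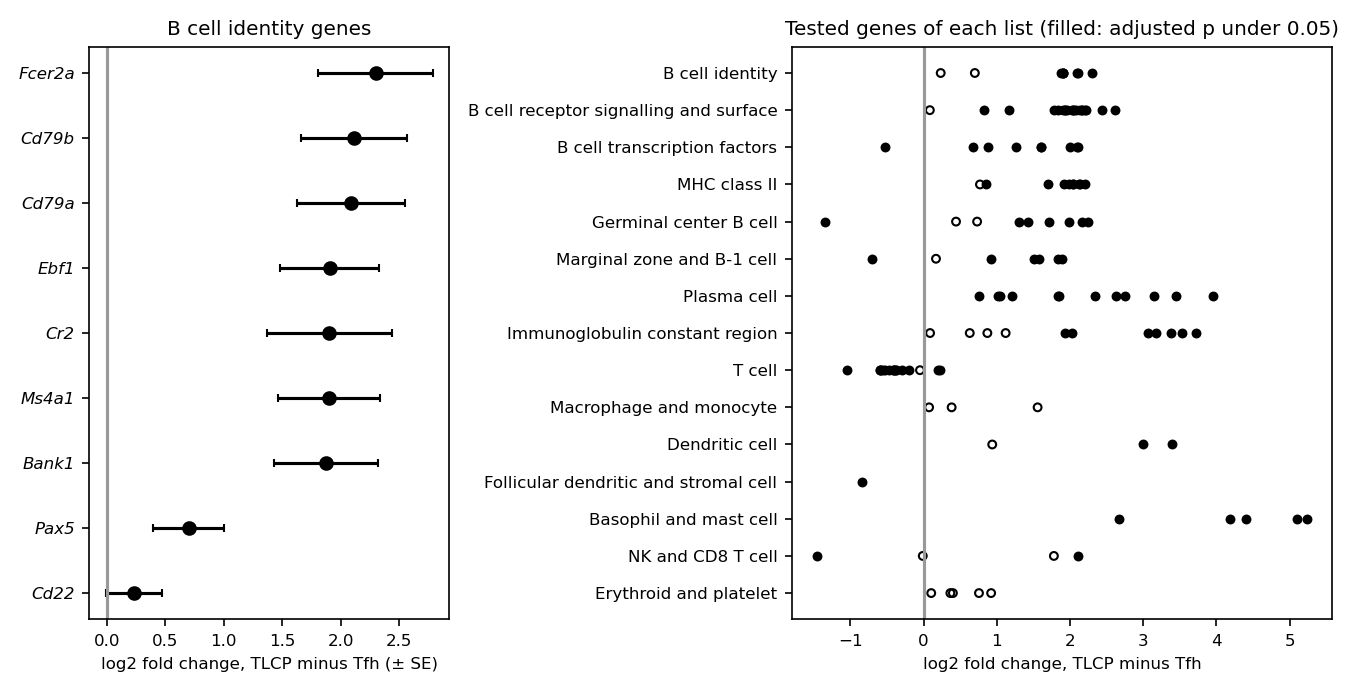
Left, log2 fold change (TLCP minus Tfh, x axis) of each of the 9 genes with bars of 1 SE, from the test without a replicate block. Right, log2 fold changes of the tested genes of each list, filled at an adjusted p under 0.05. In the left panel Cd22 and Pax5 lie at 0.23 and 0.70 and the other genes between 1.87 and 2.30.

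The numbered pairs gave the same split. The ratio of TLCP to Tfh CPM within a number was 2.56 to 7.99 for the 7 genes that passed, so all 6 pairs were higher in 7 of the 9 genes, against 17.6% of all genes tested. For Pax5 the ratio was 0.960 to 2.27 with a median of 1.52, and for Cd22 it was 0.653 to 1.60 with a median of 1.15. Pair 1 was the single pair that was lower in TLCP, for both genes. In the authors' deposited table the log2 fold change was 0.71 (adjusted p = 0.076) for Pax5 and 0.25 (adjusted p = 0.53) for Cd22. For the other genes that table gives 1.88 to 2.32, with adjusted p-values from 1.1e-05 to 0.0013, and it calls 14.1% of its genes higher.

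Promoter sequences are shown for Cd79a, as a gene that was higher, and for Cd22 and Pax5, the genes that were not called, so that the letters can be set beside the values. They are from RefSeq on GRCm38.p6, which held promoters of 7 of the 9 genes, and run 5′ to 3′ from 250 bases before to 50 bases after a RefSeq start site, which need not be the gene end given in the files. The windows are chr7:24897247-24897546 on the plus strand for Cd79a, chr7:30878979-30879278 on the minus strand for Cd22 and chr4:44710645-44710944 on the minus strand for Pax5. Capitals mark matches on either strand to 4 short motifs, the EBF core CCCNNGGG, the octamer core TTTGCAT, the ETS core AGGAAG and the E-box CAGGTG.
Cd79a: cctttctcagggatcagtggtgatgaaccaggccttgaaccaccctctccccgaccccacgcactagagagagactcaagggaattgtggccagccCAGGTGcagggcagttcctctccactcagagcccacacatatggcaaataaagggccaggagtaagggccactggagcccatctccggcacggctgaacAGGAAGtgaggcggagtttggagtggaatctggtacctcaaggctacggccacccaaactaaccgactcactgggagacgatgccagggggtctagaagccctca
Cd22: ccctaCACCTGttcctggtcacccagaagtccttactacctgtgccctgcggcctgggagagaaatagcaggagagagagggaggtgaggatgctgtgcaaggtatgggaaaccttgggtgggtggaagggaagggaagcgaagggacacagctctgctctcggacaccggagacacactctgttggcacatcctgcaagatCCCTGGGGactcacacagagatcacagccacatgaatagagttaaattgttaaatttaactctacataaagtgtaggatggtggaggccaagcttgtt
Pax5: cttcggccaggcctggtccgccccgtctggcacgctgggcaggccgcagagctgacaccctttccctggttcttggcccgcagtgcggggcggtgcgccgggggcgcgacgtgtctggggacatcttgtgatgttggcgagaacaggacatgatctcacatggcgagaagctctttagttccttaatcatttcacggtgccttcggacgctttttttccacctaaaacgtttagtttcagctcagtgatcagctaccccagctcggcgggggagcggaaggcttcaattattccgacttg
The Cd79a window holds an E-box at -154 and an ETS core at -55, counted from the start site. The Cd22 window holds an E-box at -245, read on the opposite strand, and an EBF core at -48. The Pax5 window holds 0 matches. The windows of Ebf1, a gene that was higher, likewise held no match, so the matches did not divide the genes as the test did. Of 32851 mouse promoters of this length, 13.7% hold the EBF core, 4.63% the octamer core, 35.4% the ETS core and 20.2% the E-box. The matches are descriptions of letters and say nothing of binding.

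Compared per length, the order of the genes differed between the populations. In TLCP the highest mean levels were those of Cd79a at 210 ± 117 TPM and Cd79b at 195 ± 116 TPM, followed by Cd22 at 102 ± 44.8 TPM and Ms4a1 at 94.0 ± 53.4 TPM (SD, n = 6). Cd79a and Cd79b differed by less than their SD between libraries, and so did Cd22 and Ms4a1. Cr2, Fcer2a, Pax5 and Bank1 followed at 50.3, 47.6, 43.1 and 42.5 TPM, with no gap between neighbours beyond their SD, and Ebf1 was lowest at 11.4 ± 5.77 TPM. In Tfh, Cd22 was highest at 71.2 ± 16.5 TPM, above Cd79a at 39.7 ± 25.8 TPM and Cd79b at 36.3 ± 22.04 TPM. Pax5 came next at 21.5 ± 5.21 TPM, close to Ms4a1 at 20.2 ± 11.4 TPM. Cr2, Bank1 and Fcer2a lay at 10.9, 9.31 and 7.74 TPM, and Ebf1 was again lowest at 2.45 ± 1.42 TPM. Cd22 therefore ranked 3 in TLCP and 1 in Tfh, and Pax5 ranked 7 in TLCP and 4 in Tfh.

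As a share of the summed TPM of the 9 genes, Cd22 made up 11.2% to 14.5% in TLCP and 23.3% to 50.9% in Tfh. Pax5 made up 5.09% to 6.22% in TLCP and 7.94% to 12.7% in Tfh. These ranges did not overlap for either gene, and they are given as a description because both genes were singled out after their values were seen. The share of Cd79b did not overlap either, in the other direction, at 23.5% to 25.4% in TLCP and 11.4% to 19.7% in Tfh. Cd79a made up 22.4% to 28.9% in TLCP and 11.6% to 22.8% in Tfh. Shares of the same sum are not independent, because a larger share of Cd22 leaves less for the other genes.

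**Figure D3:**
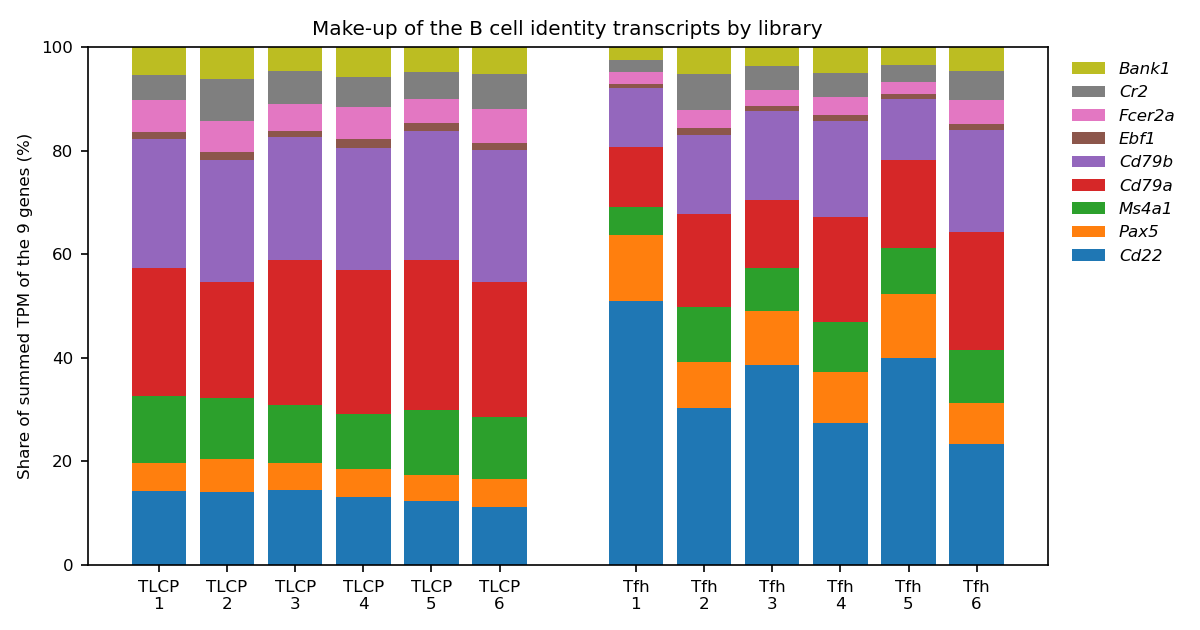
Share of the summed TPM of the 9 genes (percent, y axis) that each gene takes in each library, TLCP libraries left and Tfh libraries right. The segment of Cd22 is 11.2% to 14.5% in TLCP and 23.3% to 50.9% in Tfh.

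Set against Cd79a in the same library, most of the genes kept similar ratios in both populations. The TPM ratio of Ms4a1 to Cd79a was 0.382 to 0.529 in TLCP and 0.451 to 0.623 in Tfh, that of Bank1 was 0.165 to 0.279 in TLCP and 0.200 to 0.290 in Tfh, and that of Cd79b 0.840 to 1.05 in TLCP and 0.689 to 1.299 in Tfh. The ratio of Cd22 was 0.426 to 0.633 in TLCP and 1.02 to 4.39 in Tfh, and that of Pax5 was 0.176 to 0.278 in TLCP and 0.349 to 1.10 in Tfh. The Ebf1, Fcer2a and Cr2 ratios also overlapped, so Cd22 and Pax5 were the genes whose ratios separated the populations. Cd79a itself was 90.9 to 431 TPM in TLCP and 17.9 to 88.2 TPM in Tfh. A gene that differs little between the populations therefore tends to give separated ratios. Cd22 and Pax5 are also the genes that did not pass the main test, so the separation largely restates that result. The share of all genes with separated ratios was not computed. TLCP library 1 and Tfh library 6, at 90.9 and 88.2 TPM of Cd79a, allow the genes to be compared at a similar level of Cd79a. Ms4a1 had 47.3 TPM in that TLCP library and 39.8 TPM in that Tfh library, and Bank1 had 19.5 TPM in TLCP library 1 and 17.6 TPM in Tfh library 6. In contrast Cd22 had 52.6 TPM in TLCP library 1 and 90.2 TPM in Tfh library 6, and Pax5 19.3 TPM in TLCP library 1 and 30.8 TPM in Tfh library 6. This pair of single libraries has no replicate.

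**Figure D4:**
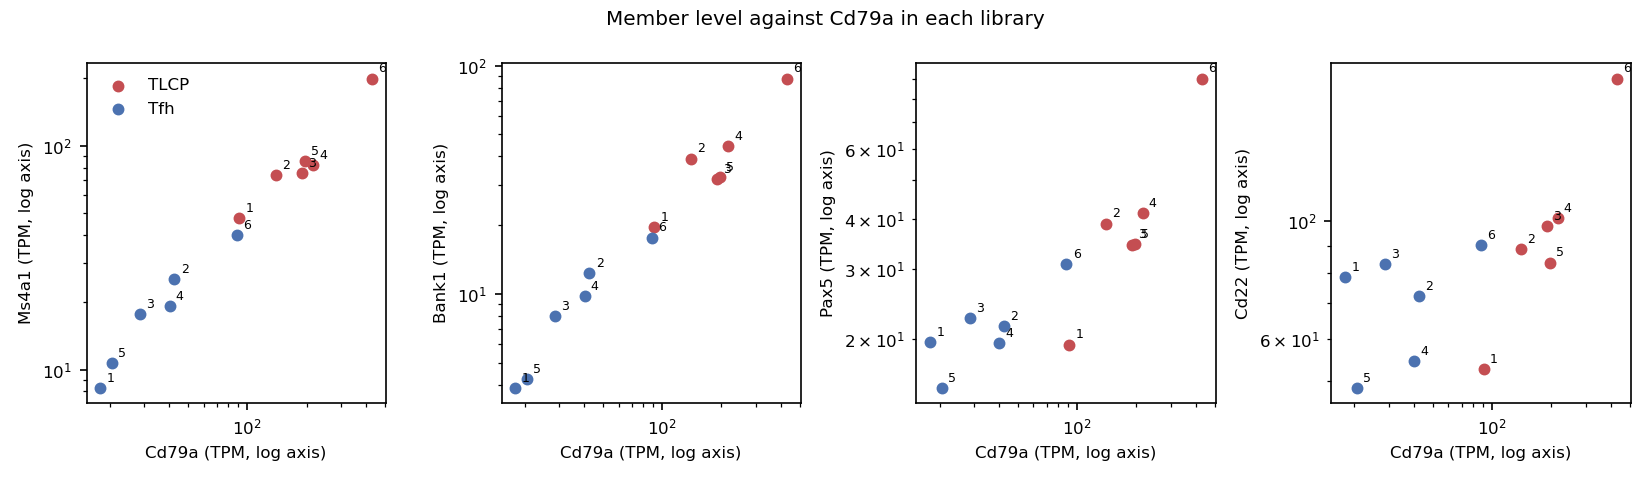
TPM of Ms4a1, Bank1, Pax5 and Cd22 (y axis) against TPM of Cd79a (x axis), both on log axes, 1 point per library. The Ms4a1 and Bank1 points of both populations lie along one band. Cd79a was 17.9 to 88.2 TPM in Tfh and 90.9 to 431 TPM in TLCP, so the populations share no range of Cd79a. For Pax5 and Cd22, the Tfh library highest in Cd79a lies above the TLCP library lowest in Cd79a, a pair without a replicate.

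The genes largely shared their highest and lowest libraries. TLCP library 1 had the lowest CPM of its population for all 9 genes and TLCP library 6 the highest. In Tfh, library 6 was the highest for all 9 and library 1 the lowest for 8, the exception being Cd22, which was lowest in library 5. The ratio of the highest to the lowest TLCP library was 3.35 for Cd22 and up to 5.76 for Cr2. In Tfh the ratio was 1.43 for Cd22 and 1.86 for Pax5, against 5.06 to 7.50 for the other genes. Cd22 and Pax5 thus had a narrow range in Tfh and a wide one in TLCP. The summed CPM of the 9 genes was 506 to 2155 in TLCP and 278 to 713 in Tfh, and the means were 1150 ± 543 CPM in TLCP, against 460 ± 153 CPM in Tfh, a ratio of 2.50. On the TPM scale each gene weighs per length and no TMM scaling is applied. There the means were 796 ± 444 TPM in TLCP and 219 ± 92.6 TPM in Tfh, a ratio of 3.63. Ratios of single genes were also higher on that scale, as for Cd79a at 5.30 in mean TPM against 4.26-fold in the main test. Beside the T cell transcript Cd3e, the TPM of Cd79a came to 24.2% to 127% of that of Cd3e in TLCP and to 5.06% to 29.6% in Tfh.

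**Figure D5:**
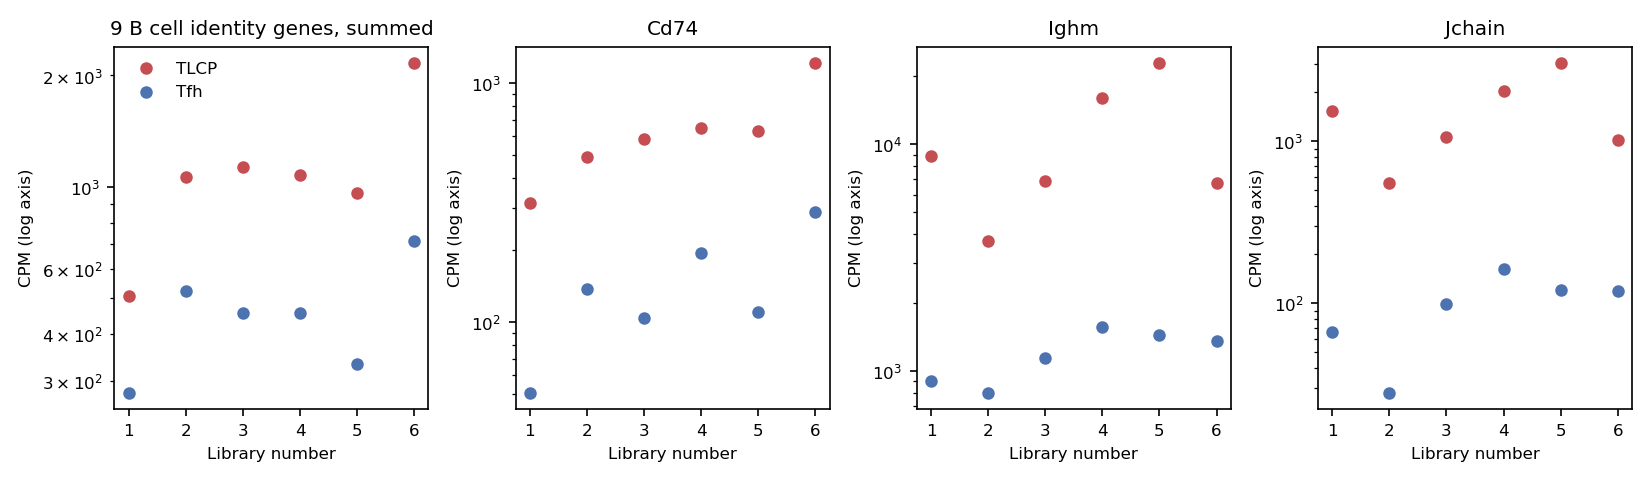
CPM (log axis) of the summed B cell identity genes, Cd74, Ighm and Jchain by library number (x axis), in separate panels that each hold TLCP and Tfh. The summed identity genes and Cd74 peak in library 6, whereas Ighm and Jchain peak in TLCP library 5.

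Ighm and Jchain followed another order over the libraries than the identity genes. Ighd, the IgD heavy chain, was by contrast among the genes most alike the identity genes in pattern without a replicate block, as given below. Ighm, the heavy chain of IgM, had 8871, 3730.0, 6899, 16114, 22786 and 6731 CPM in the TLCP libraries, and 799 to 1561 CPM in Tfh. Jchain, which joins IgM and IgA polymers in plasma cells, had 3012 CPM in TLCP library 5 and 1010.3 CPM in TLCP library 6. TLCP library 6, the highest for the identity genes, was thus below the middle of its population for both. Cd74, the invariant chain of MHC class II, had its lowest TLCP value of 316 CPM in library 1 and its highest of 1207 CPM in library 6, as the identity genes did. The part of plasma cell RNA in any of these differences was not tested.

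Other genes of the B cell pathway were mostly higher in TLCP too. Of 21 genes of B cell receptor signalling and surface, 20 were tested, and 19 were higher and 0 lower. The median of their log2 fold changes was 2.03. Syk, a kinase downstream of the receptor, averaged 107 ± 44.5 CPM in TLCP, against 22.9 ± 14.3 CPM in Tfh (log2 fold change 2.22, SE 0.44, adjusted p = 0.0028). Cd24a, a surface glycoprotein, averaged 74.0 ± 26.8 CPM in TLCP, against 32.9 ± 14.9 CPM in Tfh. The tested gene that did not pass was Tnfrsf13b, the receptor TACI, named after its values were seen, at 52.5 ± 7.19 CPM in TLCP, against 49.5 ± 4.38 CPM in Tfh (adjusted p = 0.52).

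Among 9 further transcription factors of B cells, 8 were higher and 1 lower, and the median of their log2 fold changes was 1.61. Pou2f2, an octamer-binding factor, averaged 139 ± 20.6 CPM in TLCP, against 87.4 ± 11.4 CPM in Tfh. Zfp318, needed for IgD expression, averaged 90.1 ± 26.0 CPM in TLCP, against 49.0 ± 5.08 CPM in Tfh. Pou2af1, a coactivator of octamer-binding factors, was the one that fell, at 129.8 ± 28.7 CPM in TLCP, against 187 ± 29.0 CPM in Tfh (log2 fold change -0.52, adjusted p = 0.015). Scaled by library totals alone, which moves the median of all genes to 0.17, Pou2af1 was at -0.34 and did not pass (adjusted p = 0.11), which is 0.51 below that median. Of 10 MHC class II genes 9 were higher and 0 lower, with a median of 2.01. Cd74 averaged 645 ± 301 CPM in TLCP, against 147 ± 83.9 CPM in Tfh. H2-Aa, a class II alpha chain, averaged 262 ± 125 CPM in TLCP, against 63.4 ± 38.9 CPM in Tfh. H2-Eb1, a class II beta chain, averaged 193 ± 93.5 CPM in TLCP, against 46.9 ± 26.9 CPM in Tfh.

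Plasma cell genes and most immunoglobulin genes were also higher. Of 14 plasma cell genes 12 were tested and all 12 were higher, with a median log2 fold change of 2.10, and the list summed to 1064 to 4073 CPM in TLCP and 257 to 456 CPM in Tfh. Among the 12, Sdc1 and Derl3 averaged 0.927 and 0.725 CPM in Tfh, so the filter on low counts favoured a higher call for them. Jchain averaged 1533 ± 883 CPM in TLCP, against 99.0 ± 46.6 CPM in Tfh. Txndc5, a disulfide isomerase of the secretory pathway, averaged 169 ± 73.0 CPM in TLCP, against 47.7 ± 8.06 CPM in Tfh. Irf4, a factor of plasma cells and of activated T cells, averaged 166 ± 15.1 CPM in TLCP, against 81.0 ± 7.83 CPM in Tfh. Of 12 immunoglobulin constant region genes 11 were tested, 7 were higher and 0 lower, and the list summed to 5559 to 32427 CPM in TLCP and 1046 to 3204 CPM in Tfh. The 4 that did not pass were the IgG genes, named after their values were seen. Their log2 fold changes were 0.09 for Ighg1 (adjusted p = 0.97), 0.87 for Ighg2b (0.48), 0.63 for Ighg2c (0.58) and 1.12 for Ighg3 (0.26). Immunoglobulin and MHC genes have near-identical copies, which makes their counts less certain. Ighm had a log2 fold change of 3.18 (SE 0.45), Igkc, the kappa light chain, one of 3.38 (SE 0.63) and Ighd, the IgD heavy chain, one of 1.93 (SE 0.41). The value of Ighd lay within the range of the 7 identity genes that passed.

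The lists for other cells the sort could hold gave mixed counts, and Adgre1, the C1q genes, Vcam1, Cd8a, Alas2, Itga2b and Pdpn are named after their values were seen. Of 7 basophil and mast cell genes 5 were tested by edgeR and all 5 were higher (median log2 fold change 4.40), and DESeq2 called 7 higher. The 5 averaged 0.188 to 0.796 CPM in Tfh and passed the filter on low counts through their TLCP levels. Their direction was thus nearly fixed by the filter, and the count of 5 is a description. The summed level of the list was 27.0 to 99.6 CPM in TLCP and 0.239 to 7.17 CPM in Tfh. Their most abundant gene, Mcpt8, a basophil protease, averaged 17.4 ± 9.91 CPM in TLCP, against 0.413 ± 0.382 CPM in Tfh. Mcpt8 was highest in TLCP libraries 1 and 3 and at 9.12 CPM in library 6, an order unlike that of the identity genes. Of 7 dendritic cell genes 3 were tested and 2 were higher, Itgax and Flt3. Itgax and Flt3 averaged 0.407 and 0.323 CPM in Tfh, so the same limit holds for them. With the replicate block 3 were higher, Zbtb46 being the addition, and DESeq2 called 5 higher. The list summed to 7.57 to 21.1 CPM in TLCP and 0.797 to 7.01 CPM in Tfh. Of 10 macrophage and monocyte genes 3 were tested and 0 were called by edgeR, with 1 (Csf1r) at an unadjusted p under 0.05. Csf1r was called higher with the replicate block (log2 fold change 1.73, adjusted p = 0.0018). DESeq2, which also tested the members below the filter of edgeR, called 4 higher, the macrophage marker Adgre1 and the complement genes C1qa, C1qb and C1qc. These 4 averaged 1.22 to 2.30 CPM in TLCP. In Tfh they averaged 0.092 to 0.404 CPM, no higher than the 0.239 to 0.478 CPM that a count of 0 allows. The more abundant Lyz2 and Csf1r were not called by DESeq2. The list summed to 29.9 to 115 CPM in TLCP and 17.2 to 81.8 CPM in Tfh, and Lyz2 averaged 40.4 ± 23.4 CPM in TLCP, against 31.0 ± 19.0 CPM in Tfh. Of 6 follicular dendritic and stromal cell genes, 1 was tested and lower, Mfge8. DESeq2 called 1 higher, Vcam1, an adhesion molecule, at 4.69 ± 3.29 CPM in TLCP, against 0.670 ± 0.458 CPM in Tfh, and Pdpn was at 0 in all 12 libraries. Of 6 NK and CD8 T cell genes 4 were tested, with Eomes, a transcription factor also found in other T cells, higher and Klrb1c, an NK cell receptor, lower. Cd8a, the CD8 alpha chain, averaged 3.12 ± 3.32 CPM in TLCP, against 0.858 ± 0.994 CPM in Tfh, did not pass (adjusted p = 0.081), and was called higher with the replicate block (adjusted p = 0.0054) and by DESeq2. With so low a level in Tfh, the filter of edgeR favoured a higher direction for Cd8a too. Of 10 erythroid and platelet genes 5 were tested and 0 were called by edgeR, also at an unadjusted p under 0.05. With the replicate block 1, Alas2, was called higher (log2 fold change 1.09, adjusted p = 0.019). DESeq2 called 1 higher, Itga2b, at 1.70 ± 0.808 CPM in TLCP, against 0.438 ± 0.244 CPM in Tfh. The list summed to 42.3 to 117 CPM in TLCP and 4.42 to 92.9 CPM in Tfh, and Hbb-bs, a globin gene, averaged 42.4 ± 18.7 CPM in TLCP, against 32.9 ± 22.8 CPM in Tfh. Whether RNA from any of these cells has a part in the levels of the identity genes was not tested.

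Of 17 T cell genes 2 were higher (Cd247 and Thy1, named after their values were seen), 14 were lower and 1, Cd3e, did not pass. The number called higher was 0 without TLCP replicate 3, TLCP replicate 4 or Tfh replicate 2, and 1 without TLCP replicate 1, without Tfh replicate 1, 3 or 4, or with no filter on low counts. The median log2 fold change of the 17 was -0.41. Trac, the constant region of the T cell receptor alpha chain, averaged 647 ± 77.5 CPM in TLCP, against 976 ± 62.2 CPM in Tfh. Cd4 averaged 725 ± 47.1 CPM in TLCP, against 955 ± 47.5 CPM in Tfh. Cd28, a costimulatory receptor, averaged 473 ± 97.4 CPM in TLCP, against 626 ± 87.8 CPM in Tfh. With library totals alone 9 of these genes were lower and 2 higher, in a fit that called 3207 genes higher and 893 lower of all 12015. With limma on the TPM values 1 was lower and 2 higher, in a fit that called 3180 higher and 473 lower of 12753 and moved the median of all genes to 0.25. Relative to the median of all genes, the T cell genes had a median of -0.40 in the main test, -0.41 with the totals and -0.37 on the TPM values. Under the same totals and TPM values the 7 identity genes remained higher. The summed level of the T cell genes was 5360 to 6523 CPM in TLCP and 7384 to 8235 CPM in Tfh, above that of the 9 identity genes in every library.

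The genes that varied most like the mean of the identity genes over the 12 libraries, as scaled log2 CPM deviations from each population's mean, included Lrrk2, Rasgef1b, Scd1, Ighd, Fcmr, Marchf1, Lyn, Cd180 and H2-DMb2, with Pearson's r of 0.96 to 0.99 among 12006 genes. Lyn and Cd180 encode a kinase and a surface protein of B cell signalling, Fcmr the receptor for IgM, and H2-DMb2 a chain that loads MHC class II. The value of r is a description over libraries that share scaling. When the replicate number was removed as a block, 2 of the 10 most alike, Rasgef1b and Marchf1, were still among the top 10.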

How the data were processed

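Per the labels' protocols, libraries were made from poly(A)-selected RNA with a KAPA RNA HyperPrep kit. The submitters' processing notes name bcl2fastq 2.20, STAR 2.7.1a, DESeq2 1.30.1 and GRCm38; no annotation release is given there. The authors' deposited files hold raw read counts per gene, from which the column on the gene's strand was used; reads that name no gene, 44.9% to 56.4% of each library, were left out. The authors' deposited TPM values were used for levels between genes, and sum over all genes including CT010467.1, a ribosomal RNA-like gene with 12.9% to 30.9% of assigned counts. The authors' deposited comparison table holds log2 fold changes, p-values, a test statistic (a score not used here) and a size-factor-scaled signal per library. Whole reads were recovered from 100% of that deposited signal (tolerance 0.01), and they equalled the counts, so edgeR on them called the same 3983 genes.

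Counts were tested with edgeR 4.0.16 in R 4.3.3 (filterByExpr, TMM, robust quasi-likelihood, 2-sided), over all 12 libraries with population as the only term. Each SE was derived from the log2 fold change and its F value, and the interval uses 10 degrees of freedom. A count of 0 allows up to 0.239 to 0.478 scaled CPM (3 counts), and this floor covers counting error only. Positions and identifiers are those of the files. Alternatives were other scalings, DESeq2 1.42.0, limma 3.58.1, other filters, unstranded counts, a replicate block, leaving out libraries, and replicates 1 to 3 or 4 to 6 alone. The recovered reads, leaving out both libraries numbered 6, and the block with other scalings were chosen after seeing the data. Libraries of the same number deviated together (r = 0.127 to 0.318, all 6 pairs above 0.1), and the same number was read as a pair. Other numbers reached up to 0.209, and for number 3 another number correlated more (0.143 against 0.137). Nothing says that the libraries of a population came from separate mice, other than the 6 mice of the series description. The fits were tested on simulated data. The text names the 9 genes, the 3 most abundant tested genes of each other list, the 10 genes most alike in pattern, and a few genes chosen after their values were seen; 1 gene that the rule names is not reported here. The genes and lists were chosen with earlier results of these data known.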

Additional observations from a re-analysis of the deposited data

Results flagged for a closer look

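A value was marked where the highest or lowest of 6 libraries lay apart from its nearest neighbour by a share of the range above Dixon's 95% critical value, over 58 groups of which 16 were marked. Chance marks about 1 in 20 groups, and the groups are not independent because the same libraries recur and CPM and TPM come from the same counts. In 15 of the 16 the library was number 6.

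In TLCP library 6 the gap was 0.672 of the range for Ms4a1 CPM (422 CPM, next 209 CPM), 0.660 for Cd79b CPM (206 CPM, next 101 CPM) and 0.675 for Fcer2a CPM (117 CPM, next 54.8 CPM). On the TPM scale it was 0.751 for Ms4a1, 0.635 for Cd79a, 0.728 for Cd79b, 0.689 for Pax5, 0.635 for Cd22, 0.706 for Fcer2a, 0.655 for Cr2, 0.636 for Bank1 and 0.687 for the sum of the 9 genes, which was 1660 TPM against 772 TPM in the next library.

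In Tfh library 6 the gap was 0.648 for Cd79a TPM, 0.632 for Cd79b TPM and 0.642 for Fcer2a TPM. The remaining mark was the share of Pax5 in the summed TPM in TLCP library 2, at 6.22% against 5.43% in the next library, with a gap of 0.702.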

How the results depend on the processing

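With 3 libraries per population, the count of identity genes higher in TLCP by edgeR was 1 (Fcer2a) in replicates 1 to 3 alone and 0 in replicates 4 to 6 alone. Over all genes the calls higher were 1700 of 12090 in replicates 1 to 3 and 1450 of 12265 in replicates 4 to 6. The main test called 2014 of 12015 higher. At an unadjusted p under 0.05, 6 identity genes were higher in each set, a threshold at which the share of all genes was not computed. DESeq2 was not run on these sets. Cd22 reversed in replicates 1 to 3 alone, at -0.026 (adjusted p = 0.97; 0.11 to 0.97 over 31 alternatives). The summed level was 3.63-fold higher with TPM in place of CPM, against 2.50-fold. Only 2 of the 10 genes most alike in pattern were shared after the replicate block.

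Leaving out each library in turn gave 7 to 8 genes higher, 0 to 0 lower, a median of 1.60 to 2.19 and a summed ratio of 2.06 to 2.81. The 7 genes passed in every alternative other than these sets. Pax5 passed in 7 of 31 alternatives: the replicate block alone and 3 fits that join it to another choice, both TPM fits, and leaving out TLCP replicate 1 (adjusted p = 0.00046 to 0.47 over all). With the replicate block 8 genes were higher, and the pairing changed no other call of the 9. Counts of the other lists moved by over 1.5 times in 65 of 812 cases outside these sets.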

Other observations

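Genes linked to subsets of B cells were not uniform. Of 9 germinal center B cell genes 6 were higher in TLCP, 1 was lower and 2 did not pass (median log2 fold change 1.43). Lmo2, a transcriptional adaptor, averaged 22.8 ± 10.3 CPM in TLCP, against 8.53 ± 2.96 CPM in Tfh. Mybl1, a transcription factor, averaged 14.4 ± 5.23 CPM in TLCP, against 5.83 ± 1.47 CPM in Tfh. Basp1 averaged 5.74 ± 3.40 CPM in TLCP, against 1.77 ± 0.953 CPM in Tfh. Mef2b, a transcription factor of germinal center B cells named after its values were seen, was lower, at 1.28 ± 0.730 CPM in TLCP, against 3.31 ± 0.790 CPM in Tfh (edgeR log2 fold change -1.35, adjusted p = 0.0083).

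Of 7 genes of marginal zone and B-1 cells 5 were higher and 1 lower (median log2 fold change 1.504). Dtx1, a regulator of Notch signalling, averaged 195 ± 24.5 CPM in TLCP, against 103 ± 8.81 CPM in Tfh. It was less variable over the TLCP libraries than any of the 9 identity genes. Cd9, a tetraspanin, was lower at 22.02 ± 5.08 CPM in TLCP, against 36.1 ± 6.05 CPM in Tfh (edgeR log2 fold change -0.71, adjusted p = 0.00074), and did not pass on the TPM values (log2 fold change -0.42, adjusted p = 0.056), where it lay 0.67 below the median of all genes, against 0.70 below in the main test. Cd1d1, which presents lipid antigens, averaged 24.9 ± 4.45 CPM in TLCP, against 22.1 ± 5.74 CPM in Tfh and did not pass.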
